A study of Mus musculus with 9 samples.

Results

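Oxidative phosphorylation (OXPHOS) in mitochondria is carried out by 5 protein complexes, and most of their subunits are encoded in the nucleus. The genes described here were chosen by symbol from the count tables of a study of mouse bone marrow (BM): every Nduf gene of the series a, b, c, s and v with a number (complex I), Sdha to Sdhd (complex II), every Uqcr gene (complex III), every gene of the Cox4 to Cox8 series (complex IV) and every Atp5 gene (complex V). Assembly factors named Ndufaf and pseudogenes named -ps were left out. This gave 80 of the 15265 genes in the tables, with 36 in complex I, 4 in complex II, 8 in complex III, 15 in complex IV and 17 in complex V. The choice went by name only, so Ndufa4 counted under complex I although its product is now assigned to complex IV, and Cox7a2l, a factor that joins complexes III and IV into supercomplexes, counted under complex IV. Atp5s and Atp5sl likewise counted under complex V by name, and whether their products are subunits of it was not examined.

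Complexes I and II pass electrons from NADH and succinate to ubiquinone, complex III passes them on to cytochrome c, and complex IV, cytochrome c oxidase, hands them to oxygen. Complexes I, III and IV pump protons, and complex V, the ATP synthase, uses the proton gradient to make ATP. In the marrow, granulocyte precursors end as cells with few mitochondria that rely largely on glycolysis, and red cell precursors need mitochondria for haem synthesis and lose them when they mature.

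Drop-seq, a droplet method that captures the RNA of single cells on barcoded beads, had been applied to whole marrow of C57BL/6 mice aged 2 to 3 weeks. There were 9 libraries with 100 cell barcodes each, 5 from NG2-cre/Pot1a wt/wt mice (controls) and 4 from NG2-cre/Pot1a fl/fl mice. Both groups carried the NG2-cre transgene, in which the promoter of NG2 (Cspg4), a proteoglycan of mesenchymal cells, drives Cre. In the fl/fl group Cre excises the floxed gene of the telomere-binding protein POT1a in NG2-expressing cells and their progeny, so that almost all blood cells in these libraries lie outside the targeted population. Which mouse a library came from is not stated in the labels, and the study lists fewer mice than libraries. Each library was taken as a replicate, so p-values measure the spread between libraries, which may be partly technical.

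Counts per library ran from 119459 to 465277, and the 80 OXPHOS genes took 3257 to 10075 of them. A cell held a median of 48 OXPHOS counts, and 0 of the 899 cells kept had none. The libraries Pot1a wt/wt 2 and 3 shared 19 barcodes, whose counts correlated at 0.961 to 0.999 between the libraries, so both hold some of the same cells. Values with this pair merged into 1 library are therefore given beside the main results. Pot1a gave 1 to 15 counts per library and 0 counts in the 17 mesenchymal/osteolineage-like cells, and these libraries therefore do not check the deletion.

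Levels are given in CPM, that is counts scaled to a total of 1000000 over all genes of a library or class. Drop-seq reads transcripts from their 3' end, and CPM were not divided by gene length. In whole marrow the 80 genes together came to 24181 ± 2428 CPM (SD, n = 9), with 20015, 22680, 25077, 26993 and 25582 CPM in the wt/wt libraries and 21654, 24877, 27265 and 23489 CPM in the fl/fl libraries. Complex I genes held 33.5% ± 1.30 of these counts, complex IV genes 29.1% ± 1.32, complex V genes 25.3% ± 0.93, complex III genes 9.71% ± 0.35 and complex II genes 2.29% ± 0.11 (SD, n = 9). The division between complexes thus varied little from library to library, while the total varied by more.

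The most abundant mRNAs of each complex in whole marrow were Ndufa4 (611 CPM) and Ndufa3 (420 CPM) for complex I, Sdhb (241 CPM, the iron-sulphur subunit) and Sdhd (160.5 CPM, a membrane anchor) for complex II, and Uqcrh (446.5 CPM, the hinge protein) and Uqcr10 (381 CPM) for complex III. Complex IV was led by Cox7b (1075 CPM) and Cox4i1 (998.5 CPM), and complex V by Atp5h (643 CPM, the d subunit of the stator) and Atp5f1 (575.5 CPM, the b subunit). The median over the 80 genes was 265 CPM. These levels order the genes by counts, not by transcript number per length.

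Several subunits exist as isoforms from separate genes, and the marrow used mainly the ubiquitous or liver-type forms. Cox4i1 stood at 998.5 CPM whereas the lung isoform Cox4i2 had 1 count in all libraries. Cox6a1 was at 661 CPM and its heart and muscle counterpart Cox6a2 had 11 counts, and Cox7a2 was at 535 CPM against 8 counts for the muscle isoform Cox7a1. Cox6b2, known as the testis isoform of the subunit Cox6b, was an exception with 145 CPM (364 counts) against 601 CPM for Cox6b1. Of the genes for the c-ring of the ATP synthase, which encode the same mature protein, Atp5g3 was at 402 CPM and Atp5g1 at 182 CPM, and Atp5g2 had 9 counts. Atp5s (12.7 CPM) and Atp5sl (14.8 CPM) also lay far below the median.

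Cells were clustered on genes other than the 80, and clusters were named from marker lists. The classes were 227 B-lineage-like cells, 273 granulocyte-like cells and 156 erythroid-like cells, beside 66 monocyte/macrophage-like cells. The erythroid-like cluster held 17 erythroid markers among its leading genes, and the B-lineage-like clusters held 12 and 9 markers of theirs. Within the B lineage a pro-B cluster (Vpreb1, Igll1, Dntt) and a pre-B cluster (Igkc, Cd72, Ighm) were told apart, and within the granulocytes an early (Elane, Mpo), a middle (Camp, Ngp, Ltf) and a late cluster (Mmp8, Cxcr2). A cluster of 105 cells led by Mt2, Fam132a, Mt1 and Car1 held 2 erythroid markers and stayed without a class name. It is called the Car1 cluster here.

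Within the granulocyte-like cells the OXPHOS sum was lower in each later cluster. It was 26890 ± 2668 CPM (SD, n = 8 libraries, 23871 to 31958) in the early cluster, 13388 ± 1787 CPM (n = 9, 10597 to 15263) in the middle cluster and 7784 ± 2177 CPM (n = 9, 3470 to 9940) in the late cluster. The ranges of these 3 clusters did not overlap. The late sums had a minimum of 2 cells per library where the others had 5, and 6 of the 9 come from fewer than 5 cells each. In the 3 libraries with at least 5 late cells they were 6347 CPM (wt/wt 1, 9 cells), 6985 CPM (fl/fl 1, 7 cells) and 9717 CPM (fl/fl 4, 5 cells). In counts per cell the medians were 92.5, 28 and 10.5 OXPHOS counts, with median totals of 3479, 2166 and 1483 counts per cell.

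In the other lineages the sums lay closer together. Pro-B cells had 28526 ± 5818 CPM (n = 9, 22666 to 41754) and pre-B cells 22178 ± 3835 CPM (n = 9, 17281 to 28204). The Car1 cluster had 31836 ± 3986 CPM (n = 9, 28840 to 40224), erythroid-like cells 25050 ± 4692 CPM (n = 9, 18137 to 34245) and monocyte/macrophage-like cells 22831 ± 2662 CPM (n = 8). In each of these pairs of clusters the ranges overlapped, although within most libraries the pro-B and the Car1 cluster stood above their partner.

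**Figure D1:**
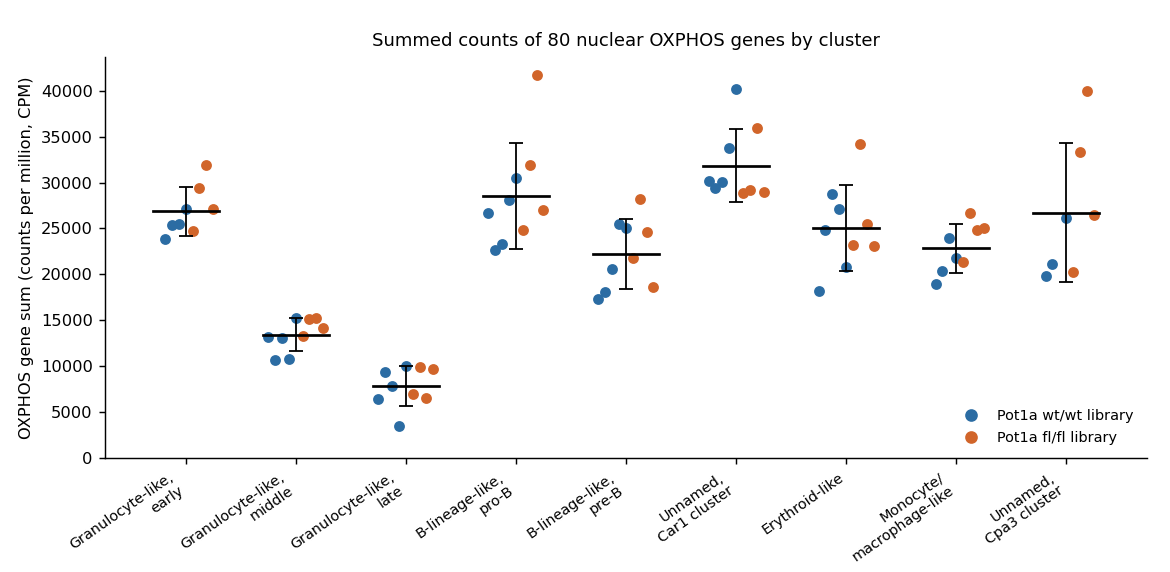
Summed level of the 80 nuclear OXPHOS genes (CPM on all counts, y axis) in each cluster (x axis), with 1 point per library, blue for Pot1a wt/wt and orange for Pot1a fl/fl, and bars for the mean ± SD. The middle and late granulocyte-like clusters, at 13388 and 7784 CPM, lie below all points of the early cluster at 26890 CPM, and the Car1 cluster averages 31836 CPM. The Cpa3 cluster is a second cluster without a class name.

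A share of all counts depends on what else a cell contains. The 20 most abundant genes took 14.4% of the counts in the early granulocyte cluster, 44.9% in the middle and 46.0% in the late cluster, mainly S100a8, S100a9 and granule protein genes, against 11.3% in B-lineage-like cells. In erythroid-like cells the globin genes took 15.96% of counts (5.15% to 27.0% by library). Ratios between clusters were therefore computed within each library both from all counts and after scaling by TMM factors, which centre the comparison on the bulk of the genes rather than on the most abundant ones.

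On all counts the OXPHOS sum of the middle granulocyte cluster was lower than that of the early cluster by a log2 ratio of -1.01 ± 0.14 (SD, lower in 8 of 8 libraries). On the TMM scale the same ratio was -0.10 ± 0.16, lower in 5 and higher in 3 libraries. Little of the difference was thus left on the scale that is centred on the bulk of the genes. For the late against the early cluster the ratio was -1.82 ± 0.52 on all counts and -1.38 ± 1.0 on the TMM scale, lower in 8 of 8 libraries on both scales, with the few late cells just described.

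The fall from pro-B to pre-B cells did not depend on the scale. The log2 ratio was -0.36 ± 0.23 on all counts and -0.38 ± 0.22 on the TMM scale, lower in 9 of 9 libraries on both scales. By complex, the ratio on all counts was -0.34 for complex I (lower in 9 of 9 libraries), -0.21 for complex II (6 of 9), -0.59 for complex III (8 of 9), -0.26 for complex IV (8 of 9) and -0.44 for complex V (9 of 9), and the TMM values were -0.36, -0.23, -0.61, -0.28 and -0.45.

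Between the classes the scale decided the order. The erythroid-like over granulocyte-like ratio was 0.41 ± 0.23 on all counts (higher in 8 of 8 libraries) and 0.09 ± 0.17 with TMM (4 of 8). The B-lineage-like over granulocyte-like ratio was 0.49 ± 0.20 (9 of 9 higher) on all counts and turned to -0.15 ± 0.12 (8 of 9 lower) with TMM, and the erythroid-like over B-lineage-like ratio was -0.07 ± 0.31 (3 of 8 higher) on all counts and 0.24 ± 0.16 (8 of 8 higher) with TMM. With the globin genes left out of the total the erythroid-like ratios were 0.65 to granulocyte-like cells and 0.18 to B-lineage-like cells. The full order of the 3 classes thus differed between the scales. The erythroid-like class does not hold the Car1 cluster, while the other classes include their early clusters. Whether the order also depends on which clusters were named was not tested. With wt/wt 2 and 3 as 1 library the ratios on all counts were 0.37, 0.51 and -0.12 in the order given here.

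Complex II, with the fewest counts, had other mean ratios than the sum and a wide spread. On all counts its B-lineage-like over granulocyte-like ratio was 0.87 ± 0.53 (SD, 9 of 9 libraries higher), against 0.43 to 0.57 for the other complexes, and on the TMM scale it was 0.23 ± 0.43 (higher in 5 and lower in 4 of 9), where the other complexes had -0.22 to -0.07. From the Car1 cluster to erythroid-like cells complex II had a ratio of -0.74 ± 0.47 on all counts and -0.45 ± 0.38 with TMM (8 of 9 libraries lower on both), while the sum had -0.36 ± 0.35 (8 of 9 lower) and -0.07 ± 0.15 (8 of 9 lower). The difference between complex II and the other complexes was not tested.

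**Figure D2:**
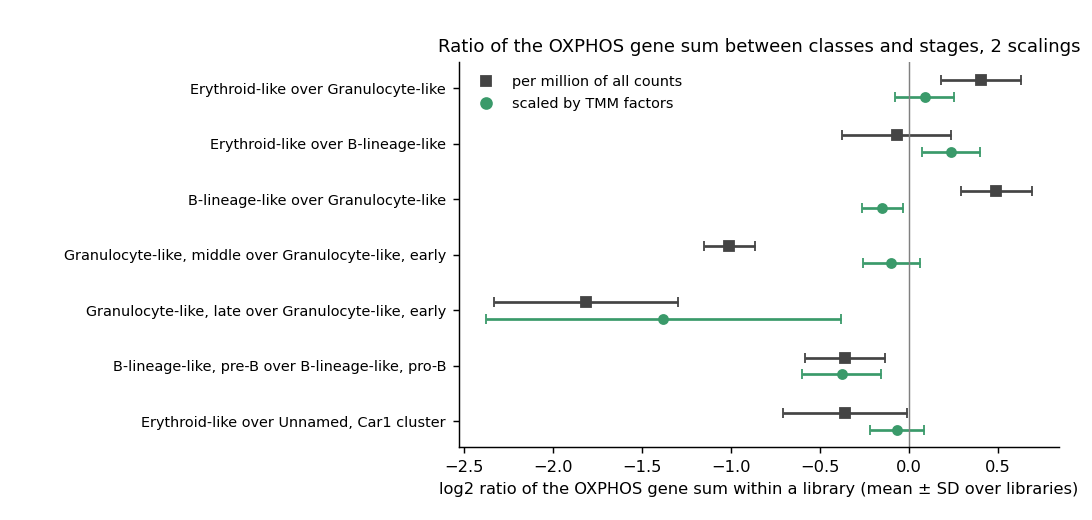
Within-library log2 ratio of the summed level of the 80 genes (x axis, mean ± SD over libraries) for each pair of classes or clusters (y axis), on all counts (squares) and on TMM-scaled counts (circles). Pre-B over pro-B keeps its place (-0.36 and -0.38), middle over early granulocyte-like moves from -1.01 to -0.10, and B-lineage-like over granulocyte-like changes sign (0.49 to -0.15), as does erythroid-like over B-lineage-like (-0.07 to 0.24).

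Single genes were tested between classes with edgeR's quasi-likelihood test on counts summed per library and class, with the library as a block, TMM scaling and Benjamini-Hochberg adjustment over all 2458 genes tested. A gene is called at an adjusted p under 0.05. The erythroid-like cells of Pot1a fl/fl 2, only 6, were left out. Of the 80 OXPHOS genes 68 passed the filter on low counts. The 12 others, among them Sdhc, Ndufs1, Ndufs3, Ndufv1 and Ndufa9, were too low in these sums. The filter ran over the sums of all 3 classes, so a gene could pass through the class where it is high. In the genotype tests within 1 class Cox6b2 passed only in erythroid-like cells. Cox7a2l, Sdhb and Ndufs5 did not pass in granulocyte-like cells. Cox7a2l, Ndufv3, Ndufb5, Ndufb11, Ndufa13 and Ndufs8 did not pass in erythroid-like cells. Their calls as lower in those classes are a description only. Ndufs7 passed in none of the 3 classes alone, so its call as higher in erythroid-like than in B-lineage-like cells is also a description only.

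In erythroid-like against B-lineage-like cells 8 OXPHOS genes were higher and 4 lower, which compares with 20.1% of all genes tested called higher and 23.6% called lower. The median log2 difference was 0.18 over the 68 genes and -0.09 over all genes. Against granulocyte-like cells erythroid-like cells had 7 OXPHOS genes higher and 8 lower, beside 21.4% and 28.6% of all genes, with a median of 0.09 against -0.07. In B-lineage-like against granulocyte-like cells 4 were higher and 8 lower, beside 17.0% and 22.1% of all genes, with a median of -0.08 against 0.00. These counts are shares of the 68 OXPHOS genes below the shares of all genes in each contrast and direction, a difference that was not tested. With wt/wt 2 and 3 as 1 library the counts were 6 higher and 4 lower, 4 higher and 7 lower, and 4 higher and 9 lower, in the same order. The shares of all genes were not set beside these merged counts, which are a description only.

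Without TMM factors the median over all genes moved to 0.26 (erythroid-like over granulocyte-like), -0.38 (erythroid-like over B-lineage-like) and 0.61 (B-lineage-like over granulocyte-like), and that over the OXPHOS genes to 0.41, -0.12 and 0.54. The calls then were 23 higher and 4 lower (all genes 32.0% and 21.8%), 4 higher and 10 lower (14.7% and 34.5%), and 39 higher and 2 lower (48.3% and 14.3%). Genes below are described on the TMM scale, and a change of sign without TMM is stated.

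The largest differences between erythroid-like and B-lineage-like cells were those of genes of cytochrome c oxidase, Cox6b2 and Cox7c. Cox6b2 had 167, 396, 334, 239, 265, 170, 250 and 167 CPM in the erythroid-like cells of Pot1a wt/wt 1 to 5 and Pot1a fl/fl 1, 3 and 4. In B-lineage-like cells it had 15.3, 47.6, 27.7, 21.1, 0, 55.8, 19.0, 0 and 24.0 CPM in wt/wt 1 to 5 and fl/fl 1 to 4, from 17 counts in all. In granulocyte-like cells it ranged from 32.2 to 176 CPM with a median of 100.3 CPM. Every erythroid-like value lay above every B-lineage-like value, and within each library the erythroid-like value was above that of the granulocyte-like cells.

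On the TMM scale Cox6b2 was 9.01-fold higher in erythroid-like than in B-lineage-like cells (log2 3.17, 95% interval 2.41 to 3.93, edgeR adjusted p = 1.32e-09) and 2.33-fold higher than in granulocyte-like cells (log2 1.22, 0.57 to 1.87, adjusted p = 0.00135). It was lower in B-lineage-like than in granulocyte-like cells (log2 -1.95, adjusted p = 9.49e-05). Within single classes Cox6b2 passed the low-count filter in erythroid-like cells only, so these calls are a description only. In the Car1 cluster it had a median of 332 CPM (254 to 500). The other Cox6b gene, Cox6b1, did not follow this pattern, with medians of 660 CPM in erythroid-like, 601 CPM in B-lineage-like and 380 CPM in granulocyte-like cells (lowest 355, 471 and 197 CPM), and its ranges overlapped between the classes.

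Cox7c, a small subunit of complex IV, ranged from 355 to 717 CPM (median 596) in erythroid-like, 159 to 310 CPM (median 242) in B-lineage-like and 169 to 410 CPM (median 290) in granulocyte-like cells. All erythroid-like values lay above all B-lineage-like values. It was 2.91-fold higher than in B-lineage-like cells (log2 1.54, 1.14 to 1.94, edgeR adjusted p = 6.38e-09) and higher than in granulocyte-like cells by a log2 of 0.62 (adjusted p = 0.00489). Its lower level in B-lineage-like than in granulocyte-like cells (log2 -0.92, adjusted p = 0.000114) was not called without TMM (log2 -0.30, adjusted p = 0.198).

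The start regions of these 2 genes and of Uqcr11, described further on, are shown because they are members with differences between cell types and because they stand for promoters with and without the motifs searched (mouse GRCm38.p6, from 250 bases before to 50 bases after the start of the gene in RefSeq, printed 5' to 3' on the minus strand, on which all 3 genes lie). Cox6b2 (GENCODE M21, chr7:4751792-4753094) has its start region at chr7:4753045-4753344, Cox7c (chr13:86044816-86046904) at chr13:86046746-86047045 and Uqcr11 (chr10:80402997-80406830) at chr10:80406772-80407071. Capitals mark a GATA motif read on the other strand (TTATCT) in Cox7c, and an ETS motif (CCGGAAGT) followed by an NRF1 motif (GCATGCGC) in Uqcr11. The Cox6b2 region held none of the motifs searched.
Cox6b2: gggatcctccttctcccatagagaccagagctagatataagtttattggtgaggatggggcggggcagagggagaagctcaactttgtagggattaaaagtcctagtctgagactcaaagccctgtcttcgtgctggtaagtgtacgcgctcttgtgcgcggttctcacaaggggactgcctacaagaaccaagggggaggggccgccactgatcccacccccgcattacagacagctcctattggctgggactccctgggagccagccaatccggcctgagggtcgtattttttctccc
Cox7c: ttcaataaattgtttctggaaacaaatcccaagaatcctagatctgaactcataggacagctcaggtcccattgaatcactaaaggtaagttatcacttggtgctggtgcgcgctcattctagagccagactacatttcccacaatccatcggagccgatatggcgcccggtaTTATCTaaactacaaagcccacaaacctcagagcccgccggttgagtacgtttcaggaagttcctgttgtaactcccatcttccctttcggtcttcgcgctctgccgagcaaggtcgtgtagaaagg
Uqcr11: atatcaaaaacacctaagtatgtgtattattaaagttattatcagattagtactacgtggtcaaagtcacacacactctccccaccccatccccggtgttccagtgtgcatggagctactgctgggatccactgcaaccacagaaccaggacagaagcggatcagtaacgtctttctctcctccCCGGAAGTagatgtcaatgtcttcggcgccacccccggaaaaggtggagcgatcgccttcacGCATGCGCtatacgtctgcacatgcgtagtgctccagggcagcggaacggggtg

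NRF1, ETS-type factors (NRF2/GABP) and YY1 are known regulators of nuclear OXPHOS genes, and GATA factors of erythroid genes. In the 64 OXPHOS genes with a promoter in the RefSeq table, both strands were searched for 4 short words, none of which is contained in another. The NRF1 word GCATGCGC was in 10 (15.6%, against 3.05% of the promoters of all 27025 genes), among them Sdhb, Uqcrc1 and Cox6a1. The YY1 word AAGATGGCG was in 7 (10.9% against 1.64%), among them Ndufs4, Ndufs6 and Atp5j2, and the ETS word CCGGAAGT in 5 (7.81% against 4.31%), among them Uqcrh, Cox8a and Atp5h. The GATA word AGATAA was in 6 (9.38% against 12.7%), Cox7c and Ndufa12 among them. A word found in these windows describes the sequence and does not show binding.

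In complex I, Ndufb9 (chr15:58933756-58939488) and Ndufa5 (chr6:24518666-24528013) had the largest higher values in erythroid-like cells. Ndufb10 and Ndufs7 were also called higher than in B-lineage-like cells, and Ndufa12 higher than in granulocyte-like cells. These calls were lost with wt/wt 2 and 3 as 1 library and held in 11, 13 and 12 of 19 alternative settings. Ndufb9 ranged from 564 to 1002 CPM (median 619) in erythroid-like, 137 to 775 CPM (median 263) in B-lineage-like and 100.3 to 311 CPM (median 210) in granulocyte-like cells. It was higher in erythroid-like cells in 8 of 8 libraries in both comparisons, by a log2 of 1.42 (1.01 to 1.82, edgeR adjusted p = 6.66e-08) over B-lineage-like and 1.31 (0.89 to 1.72, adjusted p = 4.59e-07) over granulocyte-like cells. Ndufa5 ranged from 265 to 1002 CPM (median 343) in erythroid-like cells against 107 to 361 CPM (median 224) and 119 to 252 CPM (median 218), and was higher by a log2 of 1.08 (adjusted p = 6.5e-05) and 0.69 (adjusted p = 0.00796). Without wt/wt 3 the second call was lost (log2 0.56). The value of 1002 CPM for both genes came from the same library, Pot1a fl/fl 3, which had the lowest depth.

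Other members were lower in erythroid-like cells. Cox5a, subunit Va of complex IV, ranged from 104 to 331 CPM (median 148) in erythroid-like, 305 to 620 CPM (median 487) in B-lineage-like and 137 to 422 CPM (median 342) in granulocyte-like cells. Its log2 difference was -1.0 to B-lineage-like (edgeR adjusted p = 0.000135, lower in 8 of 8 libraries) and -1.01 to granulocyte-like cells (adjusted p = 0.000133, lower in 6 of 8 on all counts). Against B-lineage-like cells Cox7a2l (log2 -1.05, adjusted p = 0.000628), Ndufb5 (log2 -1.0, adjusted p = 0.00665) and Ndufs8 (log2 -0.90, adjusted p = 0.02) were also lower. The call of Ndufs8 was lost without wt/wt 1 (-0.78), wt/wt 4 (-0.82) or fl/fl 1 (-0.77). Ndufb5 overlaps Mrpl47 in the annotation, and the strand used in counting is not stated.

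Against granulocyte-like cells the lowest members were Ndufv3, a small flavoprotein subunit of complex I, with 41.8 to 198 CPM (median 99.0) in erythroid-like and 193 to 402 CPM (median 258) in granulocyte-like cells (log2 -1.56, -2.12 to -1.0, edgeR adjusted p = 4.71e-06), Ndufb3 (log2 -0.96, adjusted p = 0.000445) and Uqcrb, the ubiquinone-binding protein of complex III (log2 -0.86, adjusted p = 0.000809). On all counts Ndufv3 was lower in 7 of 8 libraries, and Ndufb3 and Uqcrb in 6 of 8. The genes of complex V had no call in the lower direction, with Atp5h and Atp5j2 higher than in granulocyte-like and Atp5h and Atp5b higher than in B-lineage-like cells. Over granulocyte-like cells Atp5h kept its call in 7 of 19 alternative settings and Atp5j2 in 14. Both calls were lost with wt/wt 2 and 3 as 1 library. Over B-lineage-like cells Atp5h kept its call in 16 of 19 and Atp5b in 12.

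B-lineage-like cells differed from granulocyte-like cells by genes of several complexes. Cox7a2l ranged from 249 to 473 CPM (median 352) against 58.5 to 171 CPM (median 125), Ndufa12 from 264 to 568 CPM (median 402) against 60.7 to 192 CPM (median 132), and Sdhb from 174 to 516 CPM (median 291) against 75.9 to 161 CPM (median 124). For these 3 genes all B-lineage-like values lay above all granulocyte-like values. The log2 differences were 0.93 (edgeR adjusted p = 0.000641), 0.89 (adjusted p = 0.000674) and 0.70 (adjusted p = 0.0138), and Ndufs5 had 0.73 (adjusted p = 0.0306). The call of Sdhb was lost without fl/fl 2 (log2 0.59), and that of Ndufs5 without wt/wt 4 (0.71), wt/wt 5 (0.67), fl/fl 1 (0.65), fl/fl 2 (0.66) or fl/fl 4 (0.73). Sdhb stood out for complex II, of which the other genes tested were not called.

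The members lower in B-lineage-like than in granulocyte-like cells depended more on the scale. Ndufv3 (log2 -1.19, edgeR adjusted p = 1.88e-05) kept its call without TMM. Uqcrb (log2 -0.95, adjusted p = 4.3e-05) did not, with a log2 of -0.34 and an adjusted p of 0.127. Cox7a2 (log2 -0.43) and Ndufa3 (log2 -0.45) were called lower on the TMM scale and had values of 0.21 and 0.18 without it.

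**Figure D3:**
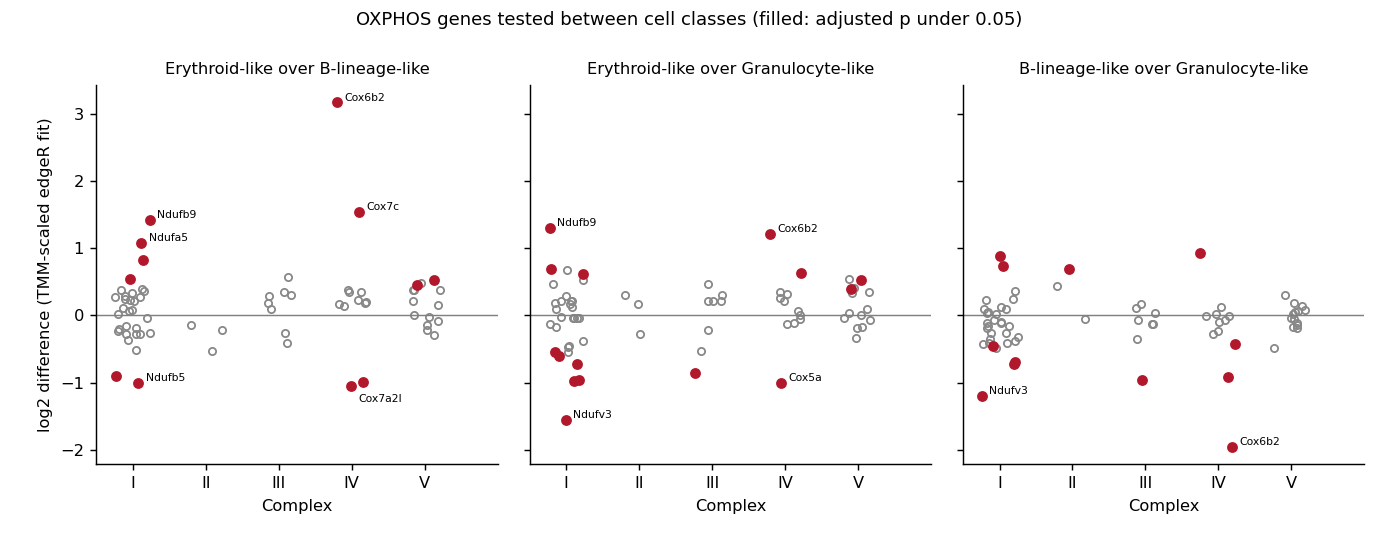
log2 difference (y axis, TMM-scaled edgeR fit) of each of the 68 OXPHOS genes tested, by complex (x axis), for the 3 pairs of classes, with filled points for an adjusted p under 0.05. Cox6b2 stands at 3.17 and Cox7c at 1.54 in erythroid-like over B-lineage-like cells, and called points lie on both sides of 0 in each panel. In the B-lineage-like over granulocyte-like panel the called genes Cox7a2 and Ndufa3 change sign without TMM (to 0.21 and 0.18).

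**Figure D4:**
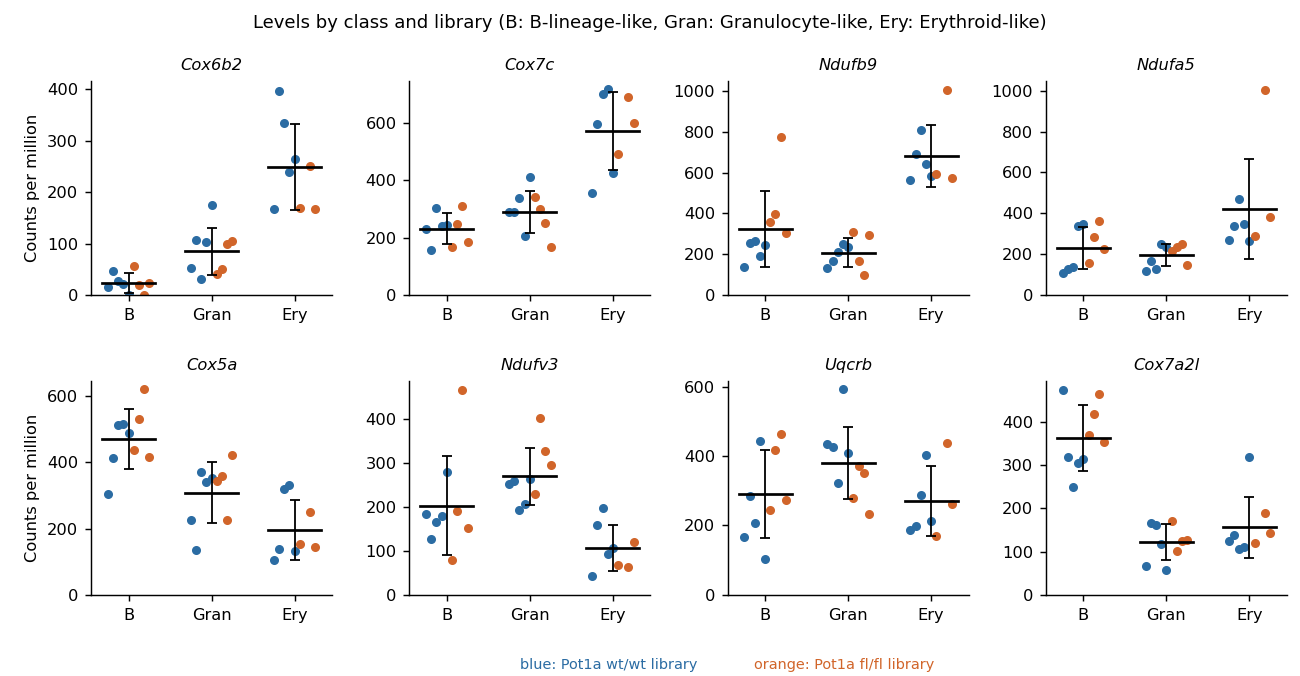
Level (CPM on all counts, y axis) of 8 named OXPHOS genes in B-lineage-like (B), granulocyte-like (Gran) and erythroid-like (Ery) cells, with 1 point per library, blue for Pot1a wt/wt and orange for Pot1a fl/fl, and the mean ± SD. Cox6b2 averages 23.4, 85.4 and 249 CPM in B, Gran and Ery, and Cox7a2l 362, 122 and 156 CPM.

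Stages within a lineage were tested in the same way. The filter again ran over both stages, so a gene could pass through the stage where it is high. From the early to the middle granulocyte cluster 8 of 50 OXPHOS genes tested were lower and 0 higher, while 27.0% of all 965 genes tested were lower. The median was -0.27 over the OXPHOS genes and -0.14 over all genes. Without TMM 46 OXPHOS genes were lower, beside 64.6% of all genes, and the medians were -1.17 and -1.03. The 8 genes were Ndufa5 of complex I, Uqcr11 and Uqcrc2 of complex III, Cox5a and Cox7b of complex IV, and Atp5a1, Atp5b and Atp5g1 of complex V. With wt/wt 2 and 3 as 1 library 6 genes were lower. A gene that passed the filter through the early cluster alone could only come out lower. The split of 8 lower and 0 higher may therefore be partly set by the filter.

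Cox7b, the OXPHOS gene with the highest level in whole marrow, ranged from 1113 to 2236 CPM (median 1405) in the early and 300 to 648 CPM (median 432) in the middle cluster, without overlap (log2 -0.89, -1.27 to -0.52, edgeR adjusted p = 7.28e-05). Atp5g1 fell from 69 counts (153 to 559 CPM) to 9 counts (0 to 108 CPM), with a log2 of -2.75 (-3.94 to -1.56, adjusted p = 0.000108). With 9 counts in the middle cluster Atp5g1 passed the filter through the early cluster, so its call is a description only. Uqcr11, a small subunit of complex III, went from 297 to 839 CPM to 0 to 214 CPM (log2 -1.42, -2.11 to -0.73, adjusted p = 0.000514), and Ndufa5 from 186 to 448 CPM to 0 to 180 CPM (log2 -1.19, -1.92 to -0.46, adjusted p = 0.00524). In these 4 genes the clusters did not overlap.

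The late cluster was small, with 38 cells, so that OXPHOS genes passed the filter on low counts mainly through the early cluster, where they are high. A gene that passed in this way had to be lower in the late cells, and the counts that follow are a description only. In the 2 libraries with at least 5 cells of both stages (fl/fl 1 and fl/fl 4) 23 of the 80 genes could be tested and 6 were lower, beside 30.0% of all genes, and DESeq2 called 0 OXPHOS genes in this fit. With at least 2 cells per stage 7 of the 80 could be tested and 6 were lower, beside 47.7% of all genes. Cox7b had 463 counts in the early and 10 in the late cells, Cox8a 257 and 11, Cox6b1 208 and 5, and Ndufa4 219 and 2. Atp5g1 had 0 counts in the late cells.

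From pro-B to pre-B cells 9 of 56 OXPHOS genes were lower and 0 higher, beside 14.2% of all 1222 genes tested called lower. Of the 56 genes 48 had a negative log2 difference, with a median of -0.36 where all genes had 0.01. Median totals were 2660 counts per cell in pro-B and 1936 in pre-B cells. A gene that passed the filter through the pro-B cluster alone could only come out lower. The split of 9 lower and 0 higher may therefore be partly set by the filter. Without TMM the same number, 9, was lower, beside 13.3% of all genes, and the medians were -0.35 and 0.02. By complex 3 genes of complex I (Ndufa12, Ndufb6, Ndufs6), 3 of complex III (Uqcr11, Uqcrb, Uqcrq), 2 of complex IV (Cox5a, Cox7b) and 1 of complex V (Atp5b) were called. The count of 9 was close to the share of all genes and depended on the setting, with 13 genes lower with wt/wt 2 and 3 as 1 library, 4 without fl/fl 4, 5 without wt/wt 1, 6 without fl/fl 2, 4 without the filter and 3 by DESeq2.

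Atp5b, the catalytic beta subunit of the ATP synthase, ranged from 372 to 982 CPM (median 647) in pro-B and 0 to 662 CPM (median 287) in pre-B cells, lower in 8 of 9 libraries (log2 -0.99, -1.50 to -0.49, edgeR adjusted p = 0.00188). Uqcrb ranged from 67.4 to 611 CPM (median 372) and 89.2 to 403 CPM (median 172), lower in 8 of 9 libraries (log2 -0.98, -1.56 to -0.41, adjusted p = 0.00716). Ndufb6 ranged from 171 to 472 CPM and 0 to 215 CPM, lower in 9 of 9 (log2 -1.21, -1.95 to -0.47, adjusted p = 0.0103). It was tested in 16 of 18 alternative settings and not without wt/wt 5 or fl/fl 2, so its call is a description only. Cox7b, at medians of 1161 and 803 CPM, was lower by a log2 of -0.56 (-0.93 to -0.18, adjusted p = 0.0203) in 7 of 9 libraries, a call lost without fl/fl 4 (log2 -0.42). The ranges of pro-B and pre-B cells overlapped for each of these genes, and the differences showed within libraries.

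Erythroid-like cells against the Car1 cluster gave 2 OXPHOS genes higher and 12 lower of 68, beside 23.9% and 21.9% of all 1629 genes tested, with a median of -0.20 against -0.05. Without TMM 0 were higher and 29 lower, beside 34.7% of all genes lower, and the medians were -0.46 and -0.31. The genes lower on the TMM scale came from all complexes and included Atp5g1 (Car1 cluster 310 to 455 CPM, median 342, erythroid-like 20.9 to 573 CPM, median 147, log2 -0.98, edgeR adjusted p = 0.00139), Ndufa12 (log2 -0.76, adjusted p = 0.00197), Uqcrc2, a core protein of complex III (log2 -1.04, adjusted p = 0.00255), and Sdhd (log2 -0.98, adjusted p = 0.00369). In the genotype test within erythroid-like cells Atp5g1, Uqcrc2 and Sdhd did not pass the filter, nor did Ndufa10 and Ndufb5, which were also called lower here. These calls as lower are a description only. The split of 2 higher and 12 lower may be partly set by the filter. The higher genes were Atp5h (log2 0.54, 0.23 to 0.85, adjusted p = 0.00334) and Ndufb9 (log2 0.42, 0.09 to 0.75, adjusted p = 0.0338). Without TMM Atp5h had 0.27 (adjusted p = 0.192) and Ndufb9 0.16 (adjusted p = 0.466), and the call of Ndufb9 was also lost without wt/wt 1 (0.38), wt/wt 2 (0.41), wt/wt 5 (0.37), fl/fl 3 (0.34) or fl/fl 4 (0.39). With wt/wt 2 and 3 as 1 library 2 genes were higher and 11 lower, and with clusters made without integration 0 of 63 were called, with 1 cluster of late erythroid-like cells not in the comparison.

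The comparison of genotypes asks whether loss of Pot1a in the mesenchymal cells of the marrow went with a different OXPHOS level in the blood cells around them. The sum in whole marrow was 24069 ± 2749 CPM (SD, n = 5) in wt/wt and 24321 ± 2365 CPM (SD, n = 4) in fl/fl libraries, and the ranges overlapped. Complex I genes summed to 7898 ± 896 CPM in wt/wt and 8386 ± 1174 CPM in fl/fl libraries, complex II to 550 ± 79.8 and 562 ± 58.2, complex III to 2341 ± 321 and 2359 ± 244, complex IV to 7148 ± 795 and 6887 ± 263, and complex V to 6133 ± 753 and 6127 ± 682. Each of these differences was smaller than 1 SD.

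Within the classes the fl/fl sums were higher in B-lineage-like and granulocyte-like cells with ranges that overlapped. Both classes pool stages with different sums, and the mix of stages differed by library. Early granulocyte-like cells, for example, numbered 2 in wt/wt 1 and 13 in fl/fl 2. Stage mix and genotype were not separated in these sums. B-lineage-like cells had 21835, 20410, 22106, 26903 and 27854 CPM in wt/wt and 23165, 30617, 35163 and 23868 CPM in fl/fl libraries, a difference of 4382 CPM. Granulocyte-like cells had 13483 to 20457 CPM in wt/wt (17267 ± 2838) and 19076 to 19638 CPM in fl/fl (19366 ± 232), and all fl/fl values lay inside the wt/wt range. Erythroid-like cells had 23918 ± 4398 CPM (n = 5) and 23872 ± 1345 CPM (n = 3). Pot1a fl/fl 2, with 6 erythroid-like cells, was left out here but is in the erythroid-like cluster sums given above, where it was the highest. With it the fl/fl mean would be higher. With wt/wt 2 and 3 as 1 library the differences fl/fl minus wt/wt were 201.5 CPM in whole marrow, 3712 in B-lineage-like, 1882 in granulocyte-like and 576 in erythroid-like cells.

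By gene, edgeR's quasi-likelihood test called 0 of 74 OXPHOS genes tested in whole marrow, where 3 of 4559 genes (0.0658%) were called. At an unadjusted p under 0.05 it had 1 OXPHOS gene and 364 genes in all, and DESeq2 called 0 OXPHOS genes and 4 genes. In B-lineage-like cells 0 of 61 were called (all genes 0.0%, 1 OXPHOS gene at an unadjusted p under 0.05, DESeq2 0), in granulocyte-like cells 0 of 52 (all genes 0.0901%, 2 genes, DESeq2 0) and in erythroid-like cells 0 of 50 (all genes 0.0%, 2 genes, DESeq2 0). The intervals of the single genes were wide, so that changes of the sizes below cannot be told from none.

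In whole marrow 53 of 74 log2 differences (fl/fl minus wt/wt) were above 0, with a median of 0.08 where all genes had 0.00. The medians were 0.13 in complex I, 0.12 in II, 0.08 in III, 0.01 in IV and 0.03 in V. The largest fall was that of Cox6b2, with 107 to 223 CPM in wt/wt and 85.4 to 134 CPM in fl/fl libraries (log2 -0.68, -1.20 to -0.16, unadjusted p = 0.0138 and adjusted p = 0.469 by edgeR). Erythroid-like cells numbered 21, 20, 22, 20 and 23 in wt/wt 1 to 5 and 16, 6, 15 and 13 in fl/fl 1 to 4. Cell mix and genotype were not separated in the whole-marrow values. Within erythroid-like cells, where Cox6b2 is high, its log2 difference was -0.61, again without a call.

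Groups that do not overlap were rare among the OXPHOS genes as among all genes tested. In whole marrow this held for 0 of 74 (2.35% of all genes tested), in B-lineage-like cells for 1 of 61 (1.23%), in granulocyte-like cells for 1 of 52 (0.991%) and in erythroid-like cells for 1 of 50 (1.63%). The genes were Ndufb9 in B-lineage-like cells, with 137 to 263 CPM in wt/wt and 304 to 775 CPM in fl/fl libraries (log2 0.92, 0.24 to 1.59, edgeR adjusted p = 0.984), Atp5f1 in granulocyte-like cells, where fl/fl was above wt/wt, and Atp5o in erythroid-like cells. Atp5o, the oligomycin-sensitivity subunit of the ATP synthase, had 312 to 487 CPM in wt/wt and 215 to 251 CPM in fl/fl libraries (log2 -0.88, -1.66 to -0.11, adjusted p = 0.998). It overlaps another annotated gene, as do 22 of the 80 genes.

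Other genes with low unadjusted p were Uqcrq in granulocyte-like cells (log2 0.70, 0.05 to 1.35, edgeR adjusted p = 0.995) and Ndufa1 in erythroid-like cells (log2 -0.93, -1.72 to -0.13, adjusted p = 0.998). The test of whether the genotype difference itself differed between classes called 0 of 68 OXPHOS genes in each of the 3 pairs of classes, beside 0.122% of all genes for erythroid-like minus B-lineage-like, 0.0% for erythroid-like minus granulocyte-like and 0.122% for granulocyte-like minus B-lineage-like. At an unadjusted p under 0.05 there were 2, 4 and 2 OXPHOS genes. DESeq2 was not run for this test. The lowest p was that of Ndufa1 between erythroid-like and granulocyte-like cells (log2 -1.36, unadjusted p = 0.00695, adjusted p = 0.986).

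**Figure D5:**
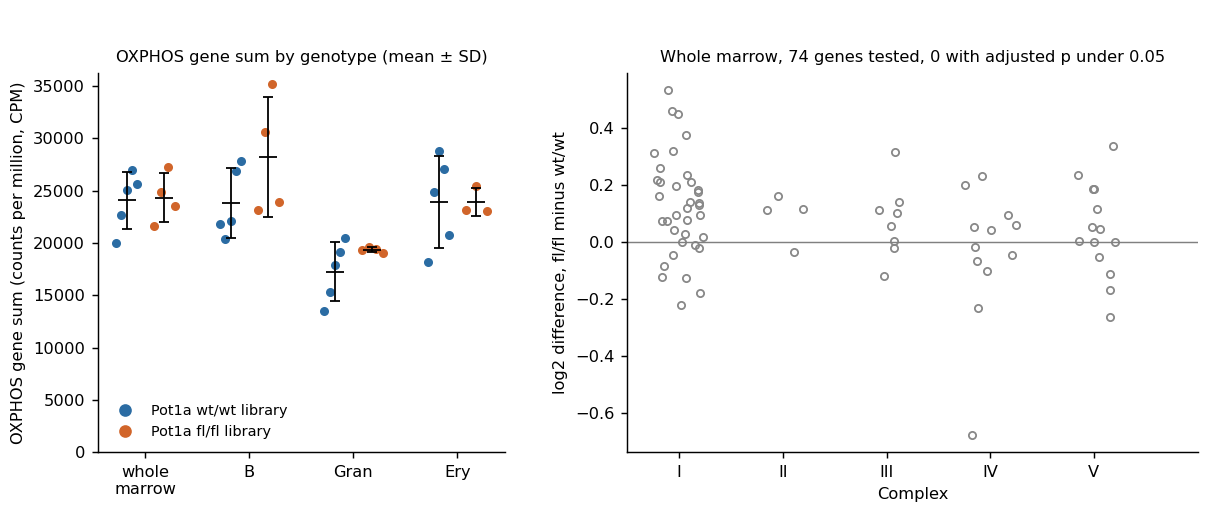
Left, summed level of the 80 OXPHOS genes (CPM on all counts) in whole marrow and in B-lineage-like (B), granulocyte-like (Gran) and erythroid-like (Ery) cells, with 1 point per library (blue Pot1a wt/wt, orange Pot1a fl/fl) and the mean ± SD. Right, log2 difference fl/fl minus wt/wt of the 74 genes tested in whole marrow, by complex, all unfilled because 0 had an adjusted p under 0.05. The whole-marrow sums of 24069 and 24321 CPM overlap, and the lowest point on the right is Cox6b2 at -0.68.

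Other genes of the pathway were counted from lists. Of the mitochondrially encoded respiratory genes 0 of 8 tested were called between erythroid-like and granulocyte-like cells (all genes 21.4% higher and 28.6% lower). In erythroid-like against B-lineage-like cells 5 of 8 were lower (all genes 23.6%), mt-Cytb by a log2 of -0.83 (edgeR adjusted p = 3.41e-06). In B-lineage-like against granulocyte-like cells 5 of 8 were higher (all genes 17.0%), mt-Nd1 by 0.59. From pro-B to pre-B cells 0 of 7 of these genes were lower (all genes 14.2%) and 1, mt-Co1, was higher.

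Among carriers of electrons and adenylates and the inhibitor of the ATP synthase, Atpif1, which blocks hydrolysis of ATP by complex V, ranged from 2891 to 4008 CPM in erythroid-like, 481 to 826 CPM in B-lineage-like and 567 to 1405 CPM in granulocyte-like cells. The erythroid-like values did not overlap with the others (log2 2.68, edgeR adjusted p = 8.01e-22, over B-lineage-like and 1.68, adjusted p = 1.03e-15, over granulocyte-like cells). The list as a whole had 1 higher and 4 lower of 11 tested in erythroid-like over B-lineage-like cells (all genes 20.1% and 23.6%). Chchd10, among the 4, was on the B-lineage marker list and helped name the pro-B cluster, so its call is no independent result. In erythroid-like over granulocyte-like cells 3 were higher and 3 lower (all genes 21.4% and 28.6%). Etfb, the beta subunit of the electron transfer flavoprotein, was among the lower (log2 -2.99, edgeR adjusted p = 2.97e-15). In the genotype tests within 1 class 5 genes of this list passed the filter in erythroid-like and 6 in granulocyte-like cells. A call as lower in those classes may thus rest on a gene that passed through another class. From pro-B to pre-B cells 5 of 8 genes of this list were lower, beside 14.2% of all genes, and 0 higher.

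Assembly factors were mostly below the filter, with 6 of 41 tested between classes. In the genotype tests within 1 class 2 passed in erythroid-like, 3 in B-lineage-like and 3 in granulocyte-like cells. The calls that follow for these factors are a description only. Cox17, the copper chaperone of complex IV, and Cox20, a factor for the maturation of its subunit 2, were higher in erythroid-like cells than in B-lineage-like cells (log2 1.35, edgeR adjusted p = 2.59e-08, and 0.88, adjusted p = 0.00253) and than in granulocyte-like cells (log2 0.52, adjusted p = 0.012, and 0.62, adjusted p = 0.033), while Cox16 was lower than in B-lineage-like cells. Of the enzymes of the tricarboxylic acid cycle 1 of 7 (Cs, citrate synthase) was higher and 3 were lower in erythroid-like than in granulocyte-like cells. Suclg1 was at a log2 of -1.92 and Pdha1 at -1.77, and of all genes 21.4% were higher and 28.6% lower. In the genotype tests within erythroid-like and within granulocyte-like cells only 1 gene of this list passed the filter in each. These calls are therefore a description only. Of the regulators of mitochondrial gene expression only Yy1 could be tested between classes, and it was lower in erythroid-like than in granulocyte-like cells (log2 -0.81, adjusted p = 0.00471). Between the genotypes 0 genes of these lists were called by edgeR in whole marrow or in a class.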

How the data were processed

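The deposited values were raw counts, 1 whole number for each gene in each barcode. Per the labels and the study's methods, the authors aligned the Drop-seq reads to mm10 with STAR, and counts came from the Drop-seq software of the McCarroll laboratory. Not given in the sources used here were the STAR version, the annotation, the strand setting and how 100 barcodes per library were chosen. The methods speak of read counts and do not state whether reads of the same molecule were collapsed. Every deposited sample column was used.

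Barcodes with at least 200 counts and at most 25% mitochondrial counts were kept (899 of 900). Scrublet in scanpy 1.11.5 marked 39 doublets, removed only in an alternative. Without the 80 genes, cells were clustered in Seurat 5.3.0 (2000 variable genes, libraries joined by anchors over 20 components with k.weight 30 and k.filter 50, Louvain resolution 1). Counts were summed per library over all cells, over a class (at least 10 cells, which leaves erythroid-like cells of Pot1a fl/fl 2 out) or over a stage (at least 5, or 2 for the late granulocyte sums), and tested with edgeR 4.0.16 in R 4.3.3 (quasi-likelihood, TMM, filterByExpr, Benjamini-Hochberg at 0.05). Genotype was compared in at least 3 libraries per group, and classes and stages with the library as a block. Depth limits precision to the counts given.

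Groups came from the sample labels, and replicate numbers did not pair libraries. Alternatives were DESeq2 1.42.0, no TMM, no filter, other clusterings, cells assigned by markers, doublets removed, merging of wt/wt 2 and 3, a replicate block and leaving out each library. The scripts were checked on simulated counts. Genes named are the 2 most abundant per complex, the 4 called genes with the smallest p per direction and contrast, the 4 with the smallest p per genotype comparison, and isoforms. A few others (Cox6b1, Atp5f1, and genes listed as calls by complex) were named after their values were seen. The 80 genes, the marker lists and the pathway lists were chosen with earlier results of these data known. The fits without TMM, the granulocyte comparisons with 2 cells and of the middle cluster, and the TMM-scaled sums were added after seeing the data. Sums over genes carry no p-value. A gene that this rule names is not reported here.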

Additional observations from a re-analysis of the deposited data

Results flagged for a closer look

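In 42 groups of libraries the summed levels were searched for a library far from the others, and 1 was found, where chance marks about 1 in 20 groups. The complex V genes of granulocyte-like cells summed to 4992 CPM in Pot1a fl/fl 3, while the other fl/fl libraries had 4525, 4572 and 4561 CPM. The wt/wt libraries ranged from 3153 to 5677 CPM, so this value lies inside the range of the controls. Pot1a fl/fl 3 had the lowest depth, and the value rests on 199 counts.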

How the results depend on the processing

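A class in a library held at most 3730 OXPHOS counts, and a stage as few as 2 cells. How far depth, the number of libraries or the cells shared by wt/wt 2 and 3 limits the calls was not compared. Of 1121 recomputed values of the genes that the naming rule picked, 1073 kept direction and side of the threshold, 47 lost the call and 1 reversed, Ndufa2 between genotypes in erythroid-like cells, at 0.0929 with cells assigned by markers. Cox7a2 and Ndufa3, which the rule did not pick, also changed sign without TMM in B-lineage-like over granulocyte-like cells. OXPHOS genes called between genotypes stayed at 0 in all alternatives, leaving out any library included (0 to 0). Same-numbered libraries did not deviate together, and a replicate block gave 0 OXPHOS genes in each comparison, with 4, 4, 5 and 2 genes called in all against 3, 0, 1 and 0. The causes of the differences that follow were not tested.

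Numbers of OXPHOS genes called moved as follows, given without the shares of all genes in each setting and so as a description only. Without TMM they were 27 for erythroid-like over granulocyte-like, 41 for B-lineage-like over granulocyte-like, 46 for middle over early granulocyte-like, 17 for late over early in 2 libraries and 29 for erythroid-like over the Car1 cluster. Without the filter they were 7 for erythroid-like over B-lineage-like, 10 for late over early in 2 libraries, 60 with at least 2 cells, 4 for pre-B over pro-B and 9 for erythroid-like over the Car1 cluster. DESeq2 gave 0 for late over early in 2 libraries and 3 for pre-B over pro-B. With wt/wt 2 and 3 as 1 library late over early gave 11 in the smaller and 10 in the larger fit. Clustering with the 80 genes gave 14 for middle over early, 14 for late over early with at least 2 cells and 9 for erythroid-like over the Car1 cluster, clustering without integration gave 18 for middle over early and 0 for erythroid-like over the Car1 cluster, with its late erythroid cluster left out, and removal of doublets gave 2 for late over early in 2 libraries.

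Late over early in 2 libraries could not be fitted without fl/fl 1 or fl/fl 4, since 1 library with both stages is left, nor in the clustering without integration, and was the same 6 to 6 without any library it did not use. Leaving out 1 library gave 11 to 18 (erythroid-like over granulocyte-like), 8 to 16 (erythroid-like over B-lineage-like), 10 to 14 (B-lineage-like over granulocyte-like), 5 to 8 (middle over early), 4 to 8 (late over early with at least 2 cells), 4 to 13 (pre-B over pro-B) and 10 to 15 (erythroid-like over the Car1 cluster). The pre-B count was 4 without fl/fl 4 and 5 without wt/wt 1, and the middle count 5 without fl/fl 1 or fl/fl 4. Sums fl/fl minus wt/wt ranged from -762 to 1141 CPM in whole marrow, 2062 to 6061 in B-lineage-like, 1153 to 2896 in granulocyte-like and -1491 to 1162 in erythroid-like cells, and cells assigned by markers gave 4979 in granulocyte-like cells. Log2 ratios of the sum kept their sign without any library, at 0.45 to 0.52 (B-lineage-like over granulocyte-like), 0.36 to 0.46 (erythroid-like over granulocyte-like), -0.13 to -0.01 (erythroid-like over B-lineage-like), -1.04 to -0.98 (middle over early), -1.88 to -1.67 (late over early), -0.39 to -0.31 (pre-B over pro-B) and -0.43 to -0.28 (erythroid-like over the Car1 cluster). The erythroid-like over granulocyte-like ratio was 0.65 without globin genes, 0.66 with cells assigned by markers and 0.0884 with TMM, the B-lineage-like over granulocyte-like ratio -0.15 and the middle over early ratio -0.10 with TMM.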

Other observations

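In 55 cells without a class name (Ms4a4b, Cpa3 and Eif4h among the leading genes) the 80 genes summed to 26717 ± 7546 CPM (SD, n = 7 libraries). The share of counts from mitochondrially encoded genes was 2.18% in B-lineage-like, 1.73% in erythroid-like and 1.28% in granulocyte-like cells. This share includes the ribosomal RNA mt-Rnr2. The order of the classes by this share, with B-lineage-like cells first, is that of the nuclear sum on all counts, which has the same total. On the TMM scale the 8 mitochondrially encoded respiratory genes tested had a median log2 of -0.12 for erythroid-like over granulocyte-like cells. The median was -0.56 for erythroid-like over B-lineage-like and 0.45 for B-lineage-like over granulocyte-like cells.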
